A study of Mus musculus with 9 samples.

Results

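TGF-beta, BMP and activin signalling was followed here through 49 mouse genes, chosen by name, in a table of 38087 genes measured in colitis colon. All 49 were in the table. They code for 3 TGF-beta ligands, 6 BMP ligands, 3 activin and inhibin subunits, 11 receptors, 6 Smads that carry or share the signal, 4 intracellular or membrane inhibitors, 7 secreted antagonists, 4 latent TGF-beta binding proteins with the protease Bmp1, and 4 Id genes. The question was how the genes of this pathway differed in the colon a day after human cells were injected.

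The tissue was the middle colon of male C57BL/6 mice aged 10 to 12 weeks, and every mouse of the 3 groups drank dextran sulfate sodium (DSS), a chemical that injures the colon lining and causes colitis. Mice of the UC-MSC group had received human mesenchymal stem cells grown from umbilical cord tissue by vein the day before. Mice of the AD-MSC group had received human mesenchymal stem cells grown from adipose tissue, and control mice had received phosphate-buffered saline (PBS). The injected cells came from human donors. No group without colitis was analysed here, and whether reads of human cells were separated from mouse reads was not given in the sources used here. Each group had 3 RNA-seq libraries, 9 in all.

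The TGF-beta family signals through pairs of type I and type II receptors that phosphorylate Smad proteins, which enter the nucleus with Smad4. TGF-beta and activin act mainly through Smad2 and Smad3, and BMPs through Smad1, Smad5 and Smad9. In the intestine, BMP signals from the stroma favour differentiation of the epithelium along the crypt, while secreted BMP antagonists made below the crypt base protect the stem cells, and TGF-beta restrains immune cells and drives fibroblasts to deposit matrix.

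The deposited values were group means, so the tables hold 1 value per gene and group, with no spread between mice, no test and no replicate check of any difference. Levels are given as normalized reads, meaning reads scaled for depth by the authors and averaged on the log2 scale. Differences are between the log2 group means, and folds are the same differences on a linear scale. Each interval is a 95% counting interval, the smallest error that the number of reads allows, and it leaves out the variation between mice. Genes were compared from a mean of 10 normalized reads over the 2 groups upward. Summed raw group means were 5034910 reads for UC-MSC, 8222020 for AD-MSC and 7295600 for control, so the UC-MSC values rest on the fewest reads. The 49 genes together had 20902 normalized reads in UC-MSC, 15065 in AD-MSC and 13935 in control.

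Colons of UC-MSC mice had higher levels of most ligands, secreted antagonists and latent TGF-beta binding proteins than control colons. The ligand *Bmp2*, the Smads and the inhibitory Smads were close to control. *Inhba*, which codes for the subunit of activin A, was 5.26-fold higher, *Grem1*, for the BMP antagonist gremlin 1, 3.80-fold higher, and *Bmp4* 2.93-fold higher. In AD-MSC mice *Inhba* was 2.03-fold higher than in control, and *Bmp3* and *Bmp4* were 1.79-fold and 1.78-fold higher. *Id1*, a target gene of BMP, was 1.82-fold lower in UC-MSC and 1.78-fold lower in AD-MSC, both relative to control.

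**Figure D1:**
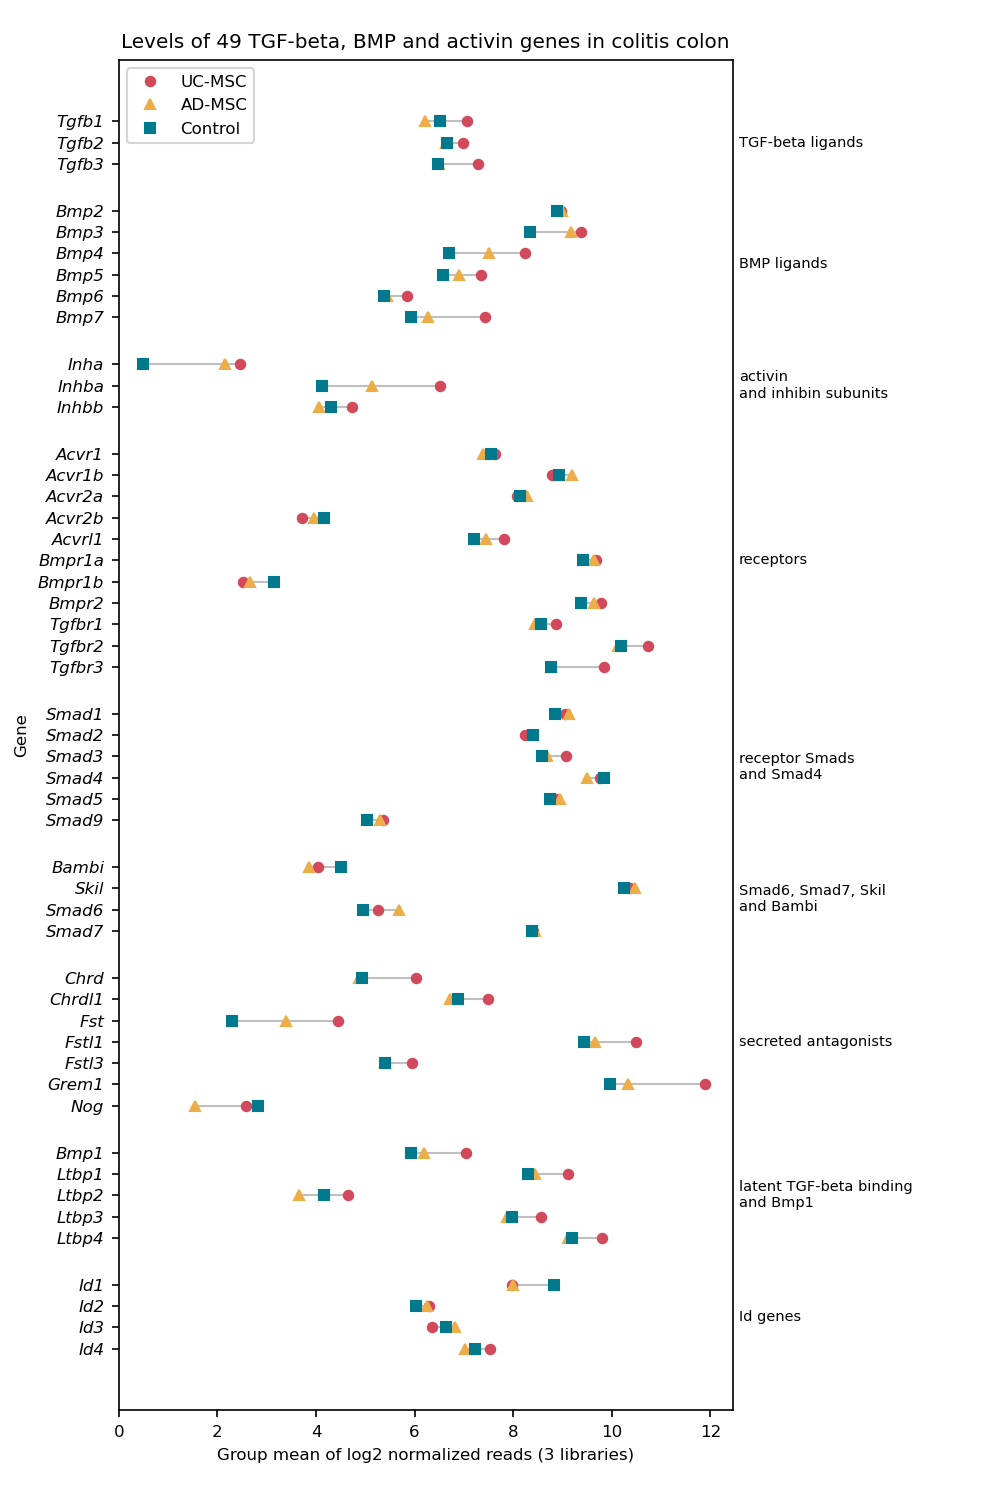
Group mean of log2 normalized reads (horizontal axis) of the 49 genes in UC-MSC (circles), AD-MSC (triangles) and control (squares) colon, 3 libraries each, ordered by role, with a line joining the lowest and the highest group and later symbols drawn over earlier ones where they coincide. *Grem1* had the highest UC-MSC level of the 49 with 3770 normalized reads, and *Inha*, *Bmpr1b* and *Nog* lay below 10 normalized reads in each group.

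In UC-MSC against control, 10 of 46 genes of the pathway that could be compared were at least 2-fold higher (21.7%), against 5.09% of all 15025 genes, and 0 were at least 2-fold lower, against 2.65%. At 1.5-fold, 17 were higher (37.0%), against 14.4% of all genes, and 1, *Id1*, was lower, against 9.88%. The median difference of the 46 genes was 0.45 on the log2 scale, with 38 above and 8 below 0. All genes compared had a median of -0.02, with 48.3% above 0. The 10 genes past 2-fold were *Inhba*, *Fst*, *Grem1*, *Bmp4*, *Bmp7*, *Bmp1*, *Chrd*, *Tgfbr3*, *Fstl1* and *Bmp3*. *Fst* could be compared only through its UC-MSC level, and over the 45 genes compared in all 3 comparisons, a restriction chosen after seeing the data, 9 were past 2-fold (20.0%), against 4.36% of all genes so compared, with a median of 0.43. Scaled to equal totals of normalized reads, which shifts the median of all genes by -0.13 in this comparison, *Inhba*, *Fst*, *Grem1*, *Bmp4* and *Bmp7*, 5 genes, stayed past 2-fold beside 3.46% of all genes.

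In AD-MSC against control, *Inhba* alone, 1 of 45 genes, had a level at least 2-fold higher (2.22%), against 1.69% of all 14960 genes, and 0 were at least 2-fold lower, against 2.01%. At 1.5-fold, *Inhba*, *Bmp3*, *Bmp4* and *Smad6*, 4 genes, were higher (8.89%), against 6.57%, and *Id1* and *Bambi*, 2 genes, were lower (4.44%), against 6.62%. These shares were near those of all genes. The median difference of the 45 genes was 0.10, with 28 above and 17 below 0, beside a median of -0.01 for all genes. Scaled to equal totals, or with 10 normalized reads added before the log, *Inhba* was under 2-fold and 0 genes were past it.

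In UC-MSC against AD-MSC, a level at least 2-fold higher was found in 6 of the 46 genes compared (13.0%), against 4.5% of all 15074 genes, and 0 were at least 2-fold lower, against 2.3%. These were *Grem1*, *Inhba*, *Bmp7*, *Chrd*, *Tgfbr3* and *Fst*. At 1.5-fold, 18 were higher (39.1%), against 12.3%, and 0 were lower, against 7.5%. The median difference was 0.39, with 34 above and 12 below 0, beside -0.01 for all genes. Scaled to equal totals, *Tgfbr3* and *Fst* were under 2-fold, and with 10 normalized reads added before the log, *Chrd* and *Fst* were. The 3 comparisons share their groups, so the lists of genes past a fold are not independent of each other.

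**Figure D2:**
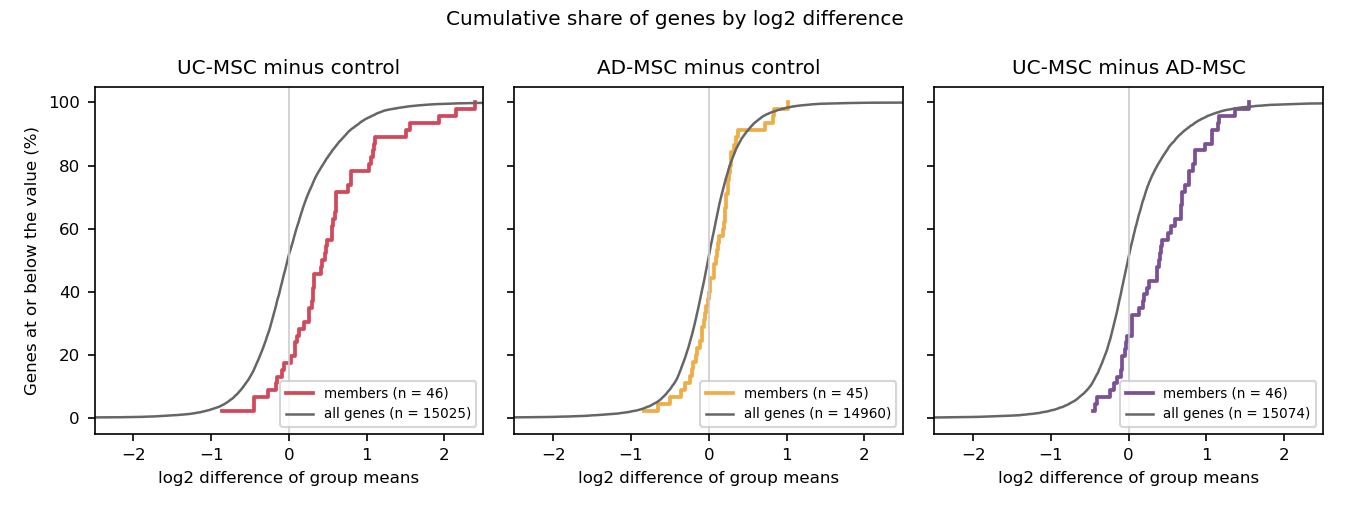
Cumulative share of genes (vertical axis, percent) at or below each log2 difference of group means (horizontal axis) for the genes of the pathway (coloured steps) and for all genes compared (grey line), in UC-MSC minus control, AD-MSC minus control and UC-MSC minus AD-MSC. The pathway genes run to the right of all genes in both comparisons of UC-MSC, with medians of 0.45 and 0.39, and lie close to them in AD-MSC minus control, with a median of 0.10.

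Of the 45 genes compared in each of the 3 comparisons, 31 had their highest level in UC-MSC, 9 in AD-MSC and 5 in control. Of all 14600 genes so compared, 35.0% were highest in UC-MSC, 28.9% in AD-MSC and 36.1% in control. In 19 of the 31 (61.3%) the AD-MSC level lay between those of UC-MSC and control, against 57.2% of all genes that were highest in UC-MSC, so the share was near that of all genes. The 19 included *Inhba*, *Grem1*, *Bmp4*, *Bmp7* and *Fstl1*. The 9 highest in AD-MSC included 4 Smads, *Smad1*, *Smad5*, *Smad6* and *Smad7*, and the 5 highest in control were *Id1*, *Bambi*, *Smad2*, *Smad4* and *Acvr2b*. With equal totals *Smad9*, *Id2* and *Bmpr1a* fell below AD-MSC and *Acvr1* below control, so they were no longer highest in UC-MSC. The AD-MSC levels of *Tgfbr3*, *Fstl3* and *Tgfb3* fell below control. The counts of 31 and 19 are thus smaller with that scaling, and the shares of all genes under it were not computed.

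Markers of fibroblasts, endothelium, smooth muscle and macrophages, and the 4 of 7 neutrophil markers compared, were also higher in UC-MSC than in control. Those of B cells were lower, and those of epithelium were close to control. Fibroblast markers, 10 genes, summed to 9264 normalized reads in UC-MSC, 5213 in AD-MSC and 4576 in control, with a median UC-MSC minus control difference of 0.997 and 10 of 10 above 0. Endothelial markers summed to 1533 in UC-MSC, 1086 in AD-MSC and 841 in control, with a median difference of 0.84. Smooth muscle markers summed to 99678 in UC-MSC, 74057 in AD-MSC and 62911 in control, with a median of 0.64, and macrophage and monocyte markers to 1596 in UC-MSC, 721 in AD-MSC and 724 in control, with a median of 1.27. Neutrophil markers summed to 145 in UC-MSC, 36.4 in AD-MSC and 46.6 in control, and those of enteric neurons and glia to 481 in UC-MSC, 377 in AD-MSC and 332 in control. Epithelial markers, the most abundant beside those of smooth muscle, summed to 75156 in UC-MSC, 66443 in AD-MSC and 72035 in control, with a median of 0.09. None of these markers was at 0 in any group, but the neutrophil markers *Ngp* and *Camp* lay between 1.04 and 1.69 in each. *S100a9*, *Cxcr2* and the monocyte marker *Ly6c2* had under 10 normalized reads in control. They passed the minimum mean only through their UC-MSC level, so a difference was bound to be seen there. The fibroblast median of 0.997 was nearly 2-fold, so the pathway genes above it were the same 10 of 46 that were past 2-fold. Of the fibroblast markers, 5 of 10 were past 2-fold, against 5.09% of all genes. In bulk tissue, more cells of a type and more RNA per cell cannot be told apart, and the part of cell composition in the pathway's values was not tested. Genes of the pancreas were also higher in UC-MSC: 7 of 8 acinar markers, all but *Cela1*, lay between 12.7 and 59.4 normalized reads there, against at most 5.22 in AD-MSC and 5.19 in control. *Pnliprp2*, the highest of these 7 in UC-MSC, had reads in every UC-MSC library. How evenly the 3 libraries shared the reads of these genes could not be seen in group means.

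Promoter sequences are shown for genes with the greatest differences that had an entry (*Grem1*, *Inhba*, *Bmp4*, *Chrd*) and for *Id2*, an Id gene with a BMP-type motif. They are RefSeq sequences of GRCm38.p6, from 250 bases before to 50 bases after the start of the gene, written 5′ to 3′ on the strand of the gene. Capitals mark matches to GGCGCC, the core of a GC-rich element that BMP Smads bind, to CAGAC, a Smad box, and to TATAAA, the TATA box, on either strand, and GGCGCC reads the same on both. Position 1 is the start, and -1 the base before it.
Grem1, chr2:113758599-113758898, minus strand: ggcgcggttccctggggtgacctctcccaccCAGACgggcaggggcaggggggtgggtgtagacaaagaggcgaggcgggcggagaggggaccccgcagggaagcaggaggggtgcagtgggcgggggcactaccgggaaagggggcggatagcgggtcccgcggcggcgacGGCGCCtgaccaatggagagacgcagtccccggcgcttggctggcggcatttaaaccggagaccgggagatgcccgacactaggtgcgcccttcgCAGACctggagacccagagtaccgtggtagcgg
Inhba, chr13:16011601-16011900, plus strand: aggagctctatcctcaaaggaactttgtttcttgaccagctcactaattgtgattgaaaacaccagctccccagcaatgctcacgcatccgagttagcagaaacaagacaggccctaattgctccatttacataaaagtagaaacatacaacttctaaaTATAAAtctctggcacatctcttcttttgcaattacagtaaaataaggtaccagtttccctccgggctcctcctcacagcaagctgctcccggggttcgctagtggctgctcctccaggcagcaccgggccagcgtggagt
Bmp4, chr14:46390620-46390919, minus strand: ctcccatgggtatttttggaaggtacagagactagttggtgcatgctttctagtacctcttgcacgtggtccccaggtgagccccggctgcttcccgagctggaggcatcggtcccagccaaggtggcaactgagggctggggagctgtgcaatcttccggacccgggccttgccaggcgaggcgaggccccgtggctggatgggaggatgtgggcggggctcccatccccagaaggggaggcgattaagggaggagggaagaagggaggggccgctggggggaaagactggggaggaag
Chrd, chr16:20732877-20733176, plus strand: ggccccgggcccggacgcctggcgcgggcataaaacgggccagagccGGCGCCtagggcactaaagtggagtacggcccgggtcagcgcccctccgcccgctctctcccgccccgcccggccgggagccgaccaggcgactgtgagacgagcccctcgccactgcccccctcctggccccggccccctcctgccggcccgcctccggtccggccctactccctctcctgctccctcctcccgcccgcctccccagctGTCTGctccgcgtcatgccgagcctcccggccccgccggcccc
Id2, chr12:25096043-25096342, minus strand: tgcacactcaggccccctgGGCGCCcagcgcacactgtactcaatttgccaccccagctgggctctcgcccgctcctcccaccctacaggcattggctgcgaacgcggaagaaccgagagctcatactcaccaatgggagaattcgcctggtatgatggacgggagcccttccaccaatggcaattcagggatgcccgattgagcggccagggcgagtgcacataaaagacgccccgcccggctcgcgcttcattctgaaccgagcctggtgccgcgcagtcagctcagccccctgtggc

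The *Grem1* window held GGCGCC at -78 and CAGAC at -219 and 18, in a sequence of 70.7% GC. The *Inhba* window was 47.7% GC, with TATAAA at -91 and no match to the other motifs. The *Chrd* window held GGCGCC at -203 and CAGAC, on the opposite strand, at 8, that of *Id2* held GGCGCC at -231, and that of *Bmp4* held none of the 3. In all, 41 promoters of 33 of the 49 genes were matched, with a median GC content of 65.0%, against 56.7% over 20113 promoters of 16432 genes. GGCGCC was in 13 of the 41, against 3122 of all 20113 promoters (15.5%). *Ltbp4* and *Smad5* each count more than once among the 13, through the same site in overlapping windows. CAGAC was in 19 of the 41, against 9731 of all promoters (48.4%), and TATAAA in 4, against 2481 (12.3%). Genes of the pathway with GGCGCC included *Grem1* and *Chrd*, with higher UC-MSC levels, as well as *Smad5*, *Acvr1b* and *Id2*, which were within 1.5-fold of control.

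The 3 TGF-beta ligands, which are secreted in a latent form and released by integrins and proteases, were all higher in UC-MSC than in control, with a median difference of 0.55. *Tgfb3* had 155 normalized reads in UC-MSC, 90.3 in AD-MSC and 89.1 in control, a UC-MSC minus control difference of 0.80 (0.58 to 1.02). *Tgfb1*, the ligand with the best-known part in immune tolerance, had 134 in UC-MSC, 74.3 in AD-MSC and 91.4 in control. Relative to control it was 1.47-fold higher in UC-MSC and 1.23-fold lower in AD-MSC. The UC-MSC minus AD-MSC difference of *Tgfb1* was 0.85 (0.62 to 1.09), the greatest of the 3 ligands. *Tgfb2* had 127 in UC-MSC, 98.8 in AD-MSC and 101 in control. In AD-MSC minus control the 3 ligands had a median of -0.04. Per kilobase of exon, *Tgfb3* was the most abundant of the 3, at 45.9 normalized reads in UC-MSC, 26.7 in AD-MSC and 26.3 in control, above *Tgfb1* at 26.6 in UC-MSC, 14.7 in AD-MSC and 18.1 in control.

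The BMP ligands were above control in both cell groups in 6 of 6 genes, with medians of 0.89 for UC-MSC and 0.34 for AD-MSC. *Bmp4*, a ligand of the intestinal stroma, had 302 normalized reads in UC-MSC, 183 in AD-MSC and 103 in control, with differences from control of 1.55 (1.37 to 1.74) and 0.83 (0.65 to 1.02). *Bmp7* had 172 in UC-MSC, 77.2 in AD-MSC and 60.5 in control, 2.84-fold above control in UC-MSC and 1.28-fold in AD-MSC. *Bmp3*, a family member that dampens BMP signalling, had 660 in UC-MSC, 578 in AD-MSC and 324 in control, with differences from control of 1.03 in UC-MSC and 0.84 in AD-MSC. The distance between the cell groups differed by ligand, since UC-MSC minus AD-MSC was 1.16 (0.94 to 1.38) for *Bmp7* and 0.19 (0.09 to 0.29) for *Bmp3*.

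*Bmp5* had 162 normalized reads in UC-MSC, 120 in AD-MSC and 95.8 in control. *Bmp6* had 57.5 in UC-MSC, 43.6 in AD-MSC and 41.8 in control. Both belong with *Bmp7* to a subgroup of related BMPs. *Bmp2*, with 501 in UC-MSC, 509 in AD-MSC and 476 in control, differed by 0.07 in UC-MSC and 0.10 in AD-MSC, and its UC-MSC difference turned to -0.06 with equal totals. Per kilobase of exon *Bmp2*, at 141 in UC-MSC, 143 in AD-MSC and 134 in control, was the most abundant BMP ligand in each group, and *Bmp4*, at 134 in UC-MSC, 81.5 in AD-MSC and 45.9 in control, came close to it in UC-MSC. The exons of *Bmp5* shared 1878 bases, 46.7% of their length, with the opposite-strand gene *Gm26903*, which had 33.6 normalized reads in UC-MSC, 15.8 in AD-MSC and 16.1 in control, and whether strand was used in counting was not given in the sources used here. Those of *Bmp6* shared 224 bases, 5.74%, with the far more abundant opposite-strand gene *Txndc5*. *Txndc5* had 971 normalized reads in UC-MSC, 1151 in AD-MSC and 1082 in control, and its part in the *Bmp6* values was not tested.

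Of the activin and inhibin subunits, *Inhba* (chr13:16011851-16027211, plus strand) had the greatest difference of the pathway. Its protein forms activin A as a dimer, a ligand produced in inflamed tissue. *Inhba* had 90.9 normalized reads in UC-MSC, 35.1 in AD-MSC and 17.3 in control, or 14.2 in UC-MSC, 5.49 in AD-MSC and 2.71 in control per kilobase of exon. The counting intervals of all 3 differences left out 0, at 2.39 (1.97 to 2.81) for UC-MSC minus control, 1.02 (0.58 to 1.46) for AD-MSC minus control and 1.37 (1.06 to 1.69) for UC-MSC minus AD-MSC. *Inhbb*, for the subunit of activin B, had 26.7 normalized reads in UC-MSC, 16.7 in AD-MSC and 19.8 in control, and its intervals reached past 0 against control in both cell groups. *Inha*, the subunit particular to inhibins, had 5.47 in UC-MSC, 4.46 in AD-MSC and 1.41 in control, with a control library at or under 1 normalized read, and was not compared.

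Of the 5 secreted antagonists compared in both cell groups, 5 were higher in UC-MSC than in control, with a median of 1.05, and 3 were higher in AD-MSC, with a median of 0.02. *Grem1* (chr2:113746164-113758646, minus strand) binds and blocks Bmp2, Bmp4 and Bmp7 and is made by fibroblasts and smooth muscle below the crypts. It had 3770 normalized reads in UC-MSC, 1284 in AD-MSC and 991 in control, with differences from control of 1.93 (1.87 to 1.98) and 0.37 (0.31 to 0.44). Per kilobase of exon it was the most abundant of the 49 genes in UC-MSC and AD-MSC, at 909 and 310, and in control it came after *Id1* and *Smad4*, at 239 against 392 and 248.

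*Chrd* codes for chordin, which traps BMPs outside the cell. It had 65.3 normalized reads in UC-MSC, 29.4 in AD-MSC and 30.6 in control, a UC-MSC minus control difference of 1.09 (0.73 to 1.46), while the AD-MSC minus control difference was -0.06. Its relative *Chrdl1* had 180 in UC-MSC, 105 in AD-MSC and 117 in control. *Nog*, for noggin, another BMP trap, had 5.97 in UC-MSC, 2.93 in AD-MSC and 7.10 in control, with an AD-MSC library at or under 1 normalized read, and was not compared.

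*Fst* and *Fstl3* code for proteins that bind and inactivate activins. *Fst* had 21.9 normalized reads in UC-MSC, 10.5 in AD-MSC and 4.92 in control, so it stood in the same order of groups as *Inhba*, with a UC-MSC minus control difference of 2.16 (1.35 to 2.96). It passed the minimum mean of 10 against control only through its UC-MSC level, so a difference was bound to be seen there, and its AD-MSC level was not compared with control. *Fstl3* had 62.0 normalized reads in UC-MSC, 42.5 in AD-MSC and 42.0 in control, and 47.3% of its exon length was shared with the opposite-strand gene *Prss57*, at 23.3 in UC-MSC, 18.0 in AD-MSC and 16.1 in control. *Fstl1*, a secreted glycoprotein of stromal cells, had 1432 in UC-MSC, 803 in AD-MSC and 689 in control, 2.08-fold higher in UC-MSC and 1.17-fold higher in AD-MSC than in control.

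**Figure D3:**
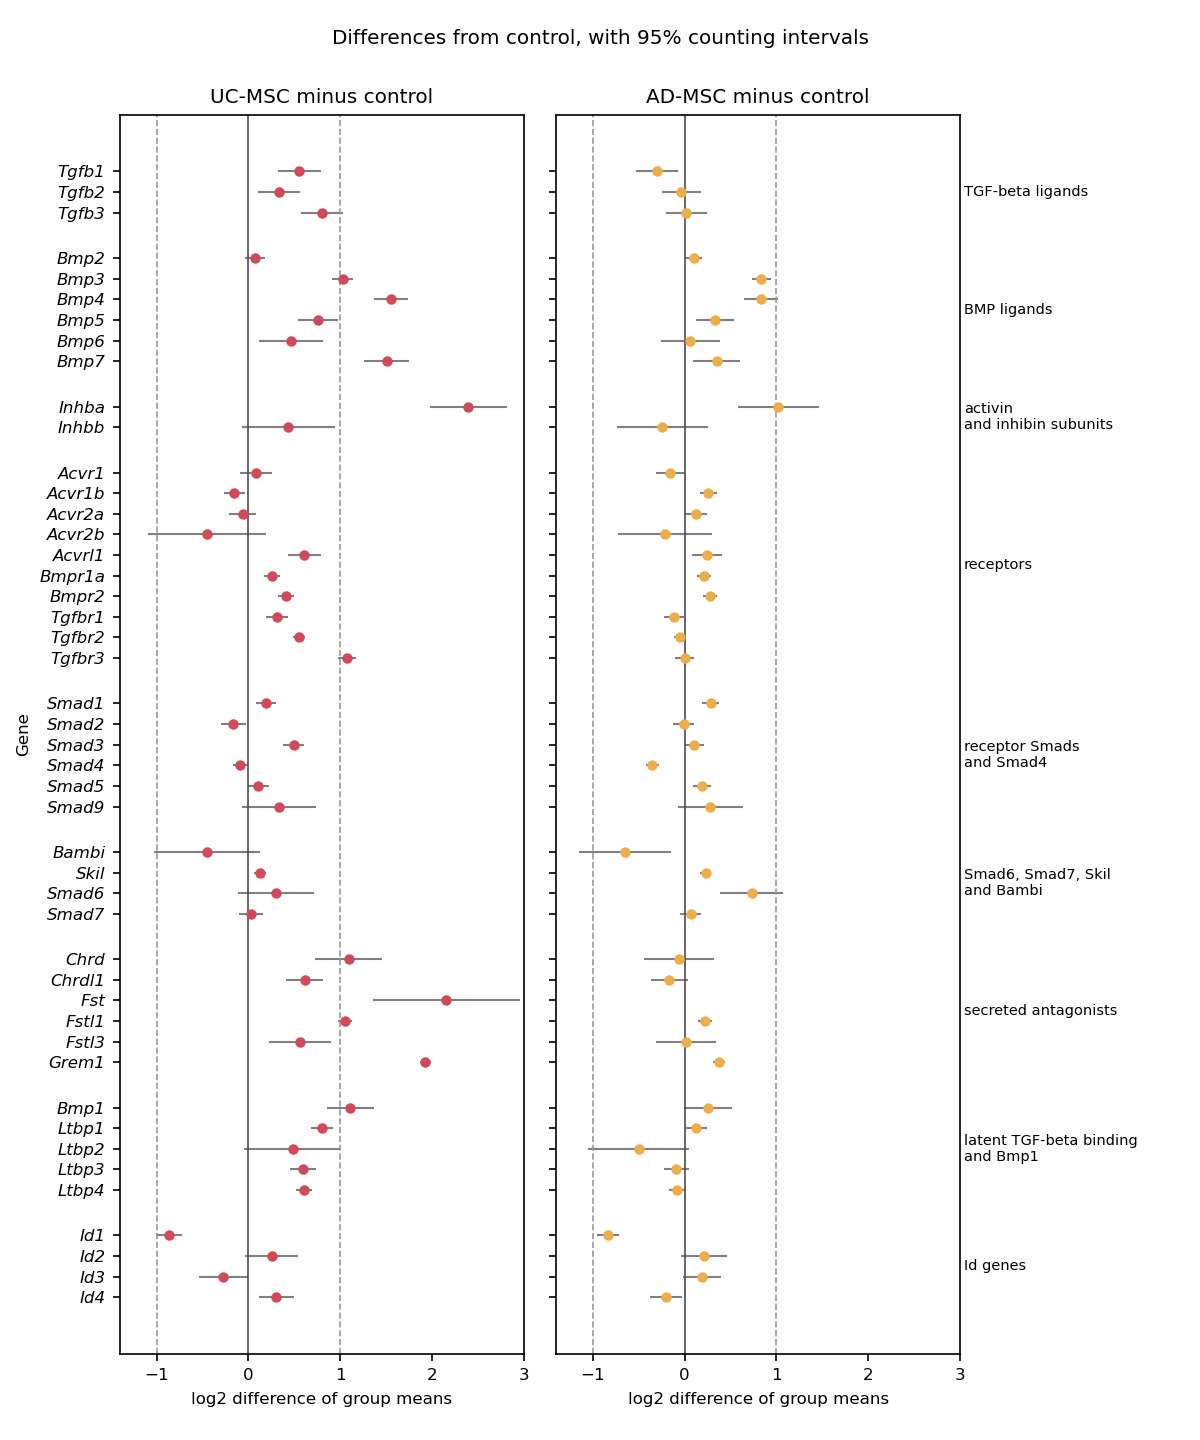
Log2 differences of group means (horizontal axis) of UC-MSC minus control (left) and AD-MSC minus control (right) for each pathway gene compared, ordered by role, where points are the differences, bars are 95% counting intervals that leave out variation between mice, and dashed lines mark 2-fold. Most ligands, antagonists and latent TGF-beta binding genes lie to the right in UC-MSC, up to 2.39 for *Inhba*, with *Bmp2* near 0. *Id1* lies to the left in both panels, at -0.86 and -0.83.

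The latent TGF-beta binding proteins, which hold TGF-beta in the matrix, and *Bmp1* were higher in UC-MSC than in control in 5 of 5 genes, with a median of 0.60. In AD-MSC the median was -0.08, with 2 of 5 above 0. *Bmp1* is not a ligand but a protease that cleaves procollagens and chordin, and it had 132 normalized reads in UC-MSC, 72.9 in AD-MSC and 61.2 in control, a UC-MSC difference of 1.11 (0.85 to 1.37). *Ltbp1* had 552 in UC-MSC, 346 in AD-MSC and 317 in control. *Ltbp3* had 378 in UC-MSC, 235 in AD-MSC and 250 in control. The third that binds latent TGF-beta, *Ltbp4*, also found on elastic fibres, had 895 in UC-MSC, 556 in AD-MSC and 589 in control. These 3 were 1.74-fold, 1.51-fold and 1.52-fold higher in UC-MSC than in control, and from 1.07-fold lower to 1.09-fold higher in AD-MSC. *Ltbp2*, a microfibril protein that does not bind latent TGF-beta, had 25.1 in UC-MSC, 12.7 in AD-MSC and 18.0 in control, with counting intervals that held 0 against control in both cell groups and a UC-MSC minus AD-MSC difference of 0.98 (0.42 to 1.55).

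Receptors differed less, with a median UC-MSC minus control difference of 0.28 and 7 of 10 above 0, and a median of 0.06 in AD-MSC. *Tgfbr3*, for the coreceptor betaglycan, which presents TGF-beta to its receptors and binds inhibin, was the exception, with 915 normalized reads in UC-MSC, 434 in AD-MSC and 434 in control. Its differences were 1.08 (0.98 to 1.17) for UC-MSC and 0.00 (-0.10 to 0.10) for AD-MSC. The type II TGF-beta receptor gene *Tgfbr2* had 1701 normalized reads in UC-MSC, 1120 in AD-MSC and 1162 in control. Its type I partner *Tgfbr1* had 466 in UC-MSC, 348 in AD-MSC and 376 in control. *Acvrl1*, a type I receptor of endothelium, had 225 in UC-MSC, 175 in AD-MSC and 148 in control, 1.52-fold higher in UC-MSC and 1.18-fold higher in AD-MSC than in control.

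The BMP receptors *Bmpr1a* and *Bmpr2* were above control in both cell groups. *Bmpr1a* had 818 normalized reads in UC-MSC, 795 in AD-MSC and 686 in control. *Bmpr2* had 880 in UC-MSC, 802 in AD-MSC and 662 in control. *Bmpr1a* codes for a type I and *Bmpr2* for a type II receptor. *Bmpr1b*, another type I receptor gene, with 5.76 in UC-MSC, 6.35 in AD-MSC and 8.88 in control, was not compared. The activin receptors among the 49 genes were within 1.5-fold of control in both cell groups. *Acvr1b*, the type I activin receptor, had 439 in UC-MSC, 584 in AD-MSC and 488 in control. The type II receptor *Acvr2a* had 271 in UC-MSC, 309 in AD-MSC and 283 in control. *Acvr2b*, its close relative, had 13.2 in UC-MSC, 15.5 in AD-MSC and 18.0 in control. *Acvr1*, which carries BMP signals, had 198 in UC-MSC, 168 in AD-MSC and 188 in control. Among these 4, *Acvr1b* was lower in UC-MSC than in AD-MSC by the widest margin, with a difference of -0.41 (-0.52 to -0.30).

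The Smads that receive the signal and *Smad4* had medians of 0.15 in UC-MSC and 0.15 in AD-MSC, and none was past 1.5-fold in any comparison. *Smad3*, the transducer of TGF-beta and activin, had the greatest UC-MSC difference, with 540 normalized reads in UC-MSC, 414 in AD-MSC and 384 in control, or 0.49 (0.38 to 0.61). *Smad2*, its partner in the same branch, had 303 in UC-MSC, 337 in AD-MSC and 340 in control. *Smad4*, shared by all branches, had 865 in UC-MSC, 722 in AD-MSC and 921 in control, a 1.28-fold lower level in AD-MSC relative to control. The BMP Smads were slightly higher in AD-MSC than in control. Their proteins are phosphorylated by the BMP receptors. *Smad1* had 527 in UC-MSC, 562 in AD-MSC and 461 in control. Its close relative *Smad5* had 465 in UC-MSC, 493 in AD-MSC and 432 in control. *Smad9* had 41.0 in UC-MSC, 39.6 in AD-MSC and 32.6 in control.

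The inhibitors inside the cell and in its membrane had smaller UC-MSC differences from control than the secreted antagonists. *Smad6*, which blocks BMP Smads, was highest in AD-MSC, with 38.4 normalized reads in UC-MSC, 51.6 in AD-MSC and 31.2 in control, and an AD-MSC minus control difference of 0.73 (0.39 to 1.07). *Smad7*, which blocks TGF-beta receptors, had 339 in UC-MSC, 348 in AD-MSC and 332 in control. *Skil*, a repressor bound to Smads, had 1329 in UC-MSC, 1425 in AD-MSC and 1217 in control. *Bambi*, a decoy receptor, had 16.5 in UC-MSC, 14.4 in AD-MSC and 22.6 in control, with differences from control of -0.45 (-1.03 to 0.12) in UC-MSC and -0.65 (-1.15 to -0.15) in AD-MSC. The medians of the 4 genes were 0.08 in UC-MSC and 0.15 in AD-MSC. With equal totals the UC-MSC minus control sign turned for *Smad7*, *Skil*, *Smad5*, *Acvr1* and *Bmp2*, none of them past 1.5-fold. The shift of all genes by -0.13 is too small to turn the sign of a gene past 1.5-fold.

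The Id genes code for inhibitors of DNA-binding transcription factors and respond directly to BMP Smads in many cells. They had no common direction. *Id1* (chr2:152736251-152737410, plus strand) had 250 normalized reads in UC-MSC, 255 in AD-MSC and 455 in control, with differences from control of -0.86 (-1.003 to -0.720) and -0.83 (-0.95 to -0.72). Both cell groups were thus lower than control and close to each other, at -0.03 (-0.18 to 0.12). *Id2* had 78.3 in UC-MSC, 75.9 in AD-MSC and 65.7 in control. *Id3* had 81.8 in UC-MSC, 112 in AD-MSC and 98.9 in control. *Id4* had 184 in UC-MSC, 130 in AD-MSC and 149 in control. The medians of the 4 were -0.01 in UC-MSC and -0.01 in AD-MSC, while the BMP ligands had positive medians in both cell groups. Markers of B cells and of mesothelium and fat were lower in both cell groups as *Id1* was. B cell markers, 6 genes, summed to 96.0 normalized reads in UC-MSC, 26.2 in AD-MSC and 222 in control, and mesothelium and fat markers, 7 genes, to 97.0 in UC-MSC, 128 in AD-MSC and 318 in control, with none at 0. Their part in the *Id1* level was not tested.

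Other target genes of BMP were mostly too low to compare. In UC-MSC minus control 4 of 10 genes listed by hand were compared, at a median of 0.10, with 2 above and 2 below 0. Of those, *Vim*, for the intermediate filament of mesenchymal cells, had 2402 normalized reads in UC-MSC, 1186 in AD-MSC and 1390 in control, and *Atoh8*, for a transcription factor, had 10.1 in UC-MSC, 26.5 in AD-MSC and 18.0 in control. *Vim* is not particular to BMP signalling, and the part of cell composition in its value was not tested. The target genes of TGF-beta were listed by hand with earlier results of these data known. In UC-MSC they were higher than in control in 15 of 15 genes, against 48.3% of all genes compared. Their median was 0.95, with 6 past 2-fold higher, against 5.09% of all genes, and 0 lower, against 2.65%. *Tnc*, for the matrix protein tenascin C, had a UC-MSC minus control difference of 1.37, *Col3a1*, for a collagen chain, 1.22 and *Snai2*, for a repressor that favours mesenchymal identity, 0.98. In AD-MSC minus control the same 15 genes had a median of 0.08, and *Cdkn2b*, for a cell cycle inhibitor, was the 1 gene past 1.5-fold, at 0.90. Of all genes, 6.57% were past 1.5-fold higher there. Many of these targets are matrix genes of fibroblasts, whose markers had a median of 0.997 in UC-MSC minus control, and their part in the target values was not tested. The list leaves out *Smad7*, *Skil* and *Bambi*, described above as inhibitors. Their UC-MSC minus control differences were 0.03, 0.13 and -0.45, so the 15 genes do not stand for every gene tied to the pathway.

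Genes for the storage and release of TGF-beta were also higher in UC-MSC. In UC-MSC minus control 10 of 10 genes were above 0, against 48.3% of all genes, with a median of 0.85. Past 1.5-fold higher were 9, against 14.4% of all genes. *Itgb8*, for the integrin subunit that activates latent TGF-beta, had 60.1 normalized reads in UC-MSC, 23.3 in AD-MSC and 16.7 in control. *Thbs1*, for thrombospondin 1, which also frees TGF-beta, was lowest in AD-MSC, with 4286 in UC-MSC, 2013 in AD-MSC and 2674 in control. In AD-MSC minus control the list had a median of 0.15, with 0 genes past 1.5-fold, against 6.57% of all genes higher and 6.62% lower. Fibroblast markers had a median of 0.997 in UC-MSC minus control, and the part of cell composition in these values was not tested.

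Other secreted antagonists outside the 49 had UC-MSC levels above control in 10 of 13 genes compared, against 48.3% of all genes, with a median of 0.64. Past 2-fold, 4 were higher, against 5.09% of all genes, and 0 were lower, against 2.65%. *Sostdc1*, a BMP and Wnt antagonist gene, had 41.6 normalized reads in UC-MSC, 20.4 in AD-MSC and 11.6 in control, and *Chrdl2*, a relative of *Chrd*, had 297 in UC-MSC, 111 in AD-MSC and 97.2 in control. *Nbl1*, which also binds BMPs, had 342 in UC-MSC, 191 in AD-MSC and 157 in control. *Dcn*, for decorin, which binds TGF-beta, counts both in this list and among the fibroblast markers. *Dand5*, for a nodal antagonist, ran the other way, at 11.3 in UC-MSC, 26.4 in AD-MSC and 17.7 in control.

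Of the remaining ligands, 6 of 21 could be compared in UC-MSC minus control, with a median of 0.23. *Bmp8b* had 55.0 normalized reads in UC-MSC, 17.7 in AD-MSC and 14.7 in control, and *Lefty1*, an inhibitor of nodal signalling, had 6.10 in UC-MSC, 20.2 in AD-MSC and 14.2 in control. *Gdf15*, a stress-responsive ligand, had 14.0 in UC-MSC, 10.0 in AD-MSC and 25.5 in control, with an AD-MSC minus control difference of -1.35. Of the remaining receptors, 4 of 7 were compared, with a median of 0.77 in UC-MSC minus control. *Rgma*, a BMP coreceptor gene, was 2.57-fold higher and *Eng*, for the endothelial coreceptor endoglin, 2.10-fold higher, while *Acvr1c*, for an activin and nodal receptor, was 2.37-fold lower. Intracellular regulators, 15 genes compared, had a median of 0.27 in UC-MSC and 0.12 in AD-MSC, with 0 past 2-fold in either. Of all genes, 5.09% were past 2-fold higher and 2.65% lower in UC-MSC, and 1.69% and 2.01% in AD-MSC. *Pmepa1*, for an inhibitor that TGF-beta itself induces, had 790 normalized reads in UC-MSC, 381 in AD-MSC and 435 in control and was the greatest of them in UC-MSC minus control, at 0.86. It counts both in this list and among the target genes of TGF-beta.

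**Figure D4:**
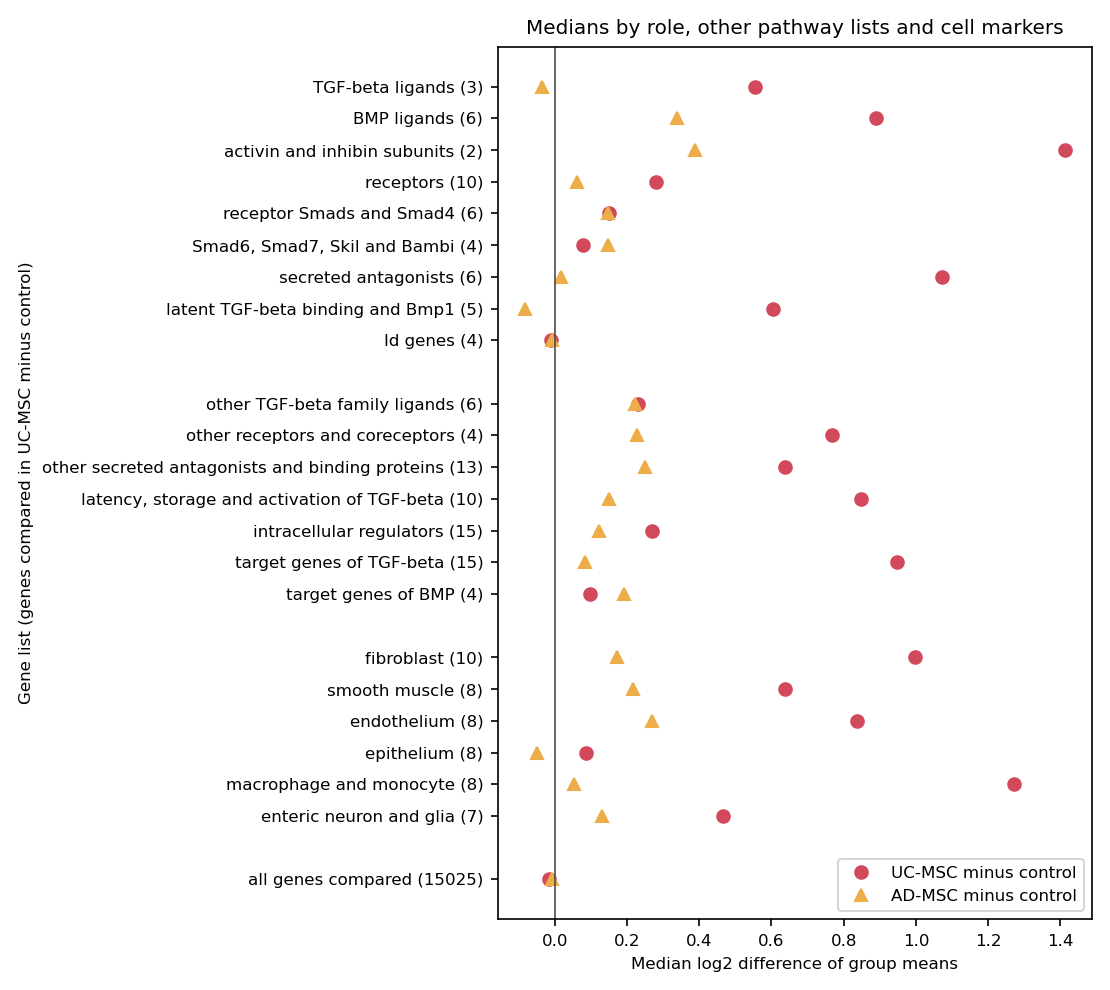
Median log2 difference of group means (horizontal axis) of UC-MSC minus control (circles) and AD-MSC minus control (triangles) for the roles of the pathway, the other pathway lists, cell markers and all genes, with the number of genes compared in UC-MSC minus control in brackets. Secreted antagonists, activin subunits and targets of TGF-beta had UC-MSC medians of 1.07, 1.41 and 0.95 beside 0.997 for fibroblast markers, where the antagonists include *Fst* in UC-MSC only, and AD-MSC medians of 0.02, 0.39 and 0.08.

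The median counting error of a difference was 0.09 in UC-MSC minus control, 0.08 in AD-MSC minus control and 0.08 in UC-MSC minus AD-MSC. In UC-MSC minus control it was widest for *Fst*, *Acvr2b* and *Bambi*, which had few reads.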

How the data were processed

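Total RNA of the middle colon was converted to libraries with the SMARTer Stranded Pico Input kit and read as 50-base single ends on a HiSeq2500. The authors excluded samples of low RNA integrity, mapped reads to the mouse genome and imported them into the Strand NGS software. Builds and tools in the submitters' processing notes are GRCm38/mm10, DESeq and bcl2fastq 1.8.4. The aligner and the use of strand in counting were not given in the sources used here. The deposited signal values are geometric means of raw reads per group, made by the authors. The deposited log2 values are group means of log2 normalized reads, with values under 1 set to 1. For genes with over 50 raw reads, at least 99.8% had the same log2 offset (within 0.01) between both columns of a group. Single-library values were not used here, so no spread or test could be had. The number of other sample columns was 0.

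Groups were taken from the labels, and the libraries are called biological replicates there. Differences of log2 means were computed with Python 3.11.15, numpy 2.4.6 and pandas 2.3.3, and drawn with matplotlib 3.10.9. A gene was compared where its mean over both groups reached 10 normalized reads, and a gene was called past a 2-fold or 1.5-fold difference. The 95% counting interval took 3 libraries at the raw group mean with Poisson error, and covers counting error only. Levels per kilobase used the summed exon length of GENCODE release M21. The scripts were tested on simulated data. The 49 genes, the pathway lists, the roles and the marker lists were written by hand and chosen with earlier results of these data known. All 49 genes were described, and of other lists at most 4 genes with the greatest difference past 2-fold, besides *Cdkn2b*, named after its values were seen. A gene that this rule names among the TGF-beta targets is not reported here. Protein sequences were not used here. Alternatives were no minimum, a minimum of 50, 10 reads added before the log, equal totals, median centring and reads in every library.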

Additional observations from a re-analysis of the deposited data

How the results depend on the processing

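No paired analysis was possible because only group means were used, and for the same reason no replicate could be left out. Under 6 alternatives no called gene changed sign, but they could not have turned one. No minimum, a minimum of 50 and reads in every library only change which genes are kept. Adding 10 reads shrinks a difference without turning it. Median centring and equal totals move all genes of a comparison alike, by far less than a 1.5-fold difference. Members at least 2-fold higher in AD-MSC than in control numbered 3 of 49 with no minimum (*Inha* and *Fst* added), beside 4.15% of all genes. With that setting 1 was lower (*Nog*), beside 3.95%, and the genes added had few reads. The higher members numbered 0 with a minimum of 50, with 10 reads added before the log, or with equal totals. Beside these were 0.606%, 0.501% and 1.52% of all genes, and as reported 1 member was higher and 0 lower. In UC-MSC minus control members at least 2-fold higher numbered 5 with equal totals, beside 3.46% of all genes, against 10 as reported. The median of the members was 0.31 with equal totals and 0.35 with 10 reads added, against 0.45. In UC-MSC minus AD-MSC that median was 0.29 with equal totals, against 0.39. Over the genes compared in all 3 comparisons, an alternative added after seeing the data, the UC-MSC minus control count was 9, against 10. The other counts stayed within 1.5 times of those reported, a wide limit for small counts. In UC-MSC minus AD-MSC, *Tgfbr3* and *Fst* fell under 2-fold with equal totals, and *Chrd* and *Fst* with 10 reads added. The AD-MSC minus control median lay between 0.06 and 0.12. With equal totals all genes shift by -0.13 in UC-MSC minus control, and the share of higher genes among those past 2-fold was 47.3%, against 65.8% as reported and 55.6% with no minimum. In UC-MSC minus AD-MSC that share was 54.0% with equal totals and 54.6% with no minimum, against 66.2%.

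Depth limits *Inha*, *Bmpr1b* and *Nog*, which were not compared, and *Fst*, *Acvr2b* and *Bambi*, whose counting intervals are wide. Variation between mice, reads of injected human cells and cell composition were not tested, and all comparisons with control share the same 3 libraries.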
